A study of Mus musculus with 3 samples.

Results

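A set of 10 genes used as markers of macrophages was read on 3 arrays of sorted mouse pancreas cells: Lyz2, Adgre1, Cd14, C1qa, Fcer1g, Tyrobp, Cd68, Csf1r, Ptprc and Itgam. They were chosen by gene symbol in the array's annotation, with every probe kept. Of the 10 genes, 8 had a named probe, which gave 13 of the 25697 probes and 8 of the 16593 named genes. No named probe was found for Cd68 and Csf1r, so these genes were not analysed here. All 3 samples form 1 group, called induced delta cells in their titles. Rag1-/- mice, a strain without mature lymphocytes of the T and B lineages, received adenovirus in the splenic lobe of the pancreas, and Cherry-positive cells were sorted from the digested acinar fraction after the islets were removed. The series title gives day 10, the extraction text calls the cells induced beta cells, and the labels used here name neither the gene carried by the virus nor the promoter driving Cherry. Separate animals or pools are not stated, and any spread over the 3 arrays may be technical. There was no control sample, so no comparison between groups was made.

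Macrophages are phagocytes that reside in most tissues, the pancreas included, and clear dying cells and debris. Their usual markers fall into several roles: lysozyme and complement C1q are secreted, Cd14 and Adgre1 (F4/80) are surface receptors, Fcer1g and Tyrobp are adaptor proteins through which many myeloid receptors signal, and Ptprc (CD45) and Itgam (CD11b) are surface proteins shared with other leukocytes.

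The arrays read 35.6%, 37.3% and 37.8% of all probes as detected on replicates 1, 2 and 3, where a detection p under 0.05 means that few negative control beads were as bright. Levels are given as log2 values after correction for the negative controls. The limit is the highest level among probes with a detection p of 0.05 or more. It stands for the 95th percentile of the negative controls, and lay at 4.83, 4.77 and 4.75 on replicates 1, 2 and 3. The labelled cell identities were read as follows. All 9 measured acinar genes and all 9 measured delta and endocrine genes were detected on every array, beside 40.9% of all named genes. Cpa1 averaged 14.50 ± 0.019 and Sst 13.81 ± 0.046 (SD, n = 3). The endocrine list also holds the hormone genes Ins2 (11.38 ± 0.039) and Gcg (9.21 ± 0.079), so it does not read delta cells alone. Each array reads many cells together, so fewer cells of a type and less RNA per cell cannot be told apart.

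Of the 8 measured marker genes, 6 (75%) were detected on all 3 arrays, beside 40.9% of all named genes. The same 6 lay above the limit in the limma fit across all probes (Benjamini-Hochberg adjusted p under 0.05), beside 40.2% of all named genes. The limit is set by the detection call, so a probe detected on all 3 arrays lies above it on each. The fit adds only whether that height exceeds the spread between arrays, and it is no separate test of detection. It takes the limit as fixed, so its p-values leave out any error in the limit itself. Its SEs and p-values also borrow the variance of all probes of like level, and a probe's own SD over 3 arrays can be larger than they imply. Without that variance trend the same 6 genes were called, with adjusted p-values in limma between 9.35e-11 (Fcer1g) and 3.43e-06 (Tyrobp) for the 7 detected probes. Heights above the limit depended on the background correction: without it Lyz2 lay 4.11 above the limit, Fcer1g 4.02, Adgre1 2.88 and 1.47, Cd14 1.67, C1qa 1.37 and Tyrobp 0.62. By probe, 7 of 13 (53.8%) were detected on all 3 arrays, beside 33.0% of all probes, and the other 6 on none; in limma, 7 of 13 lay above the limit, beside 32.4% of all probes. The detected genes were Lyz2, Adgre1, Cd14, C1qa, Fcer1g and Tyrobp, and the genes not above background were Ptprc and Itgam.

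**Figure D1:**
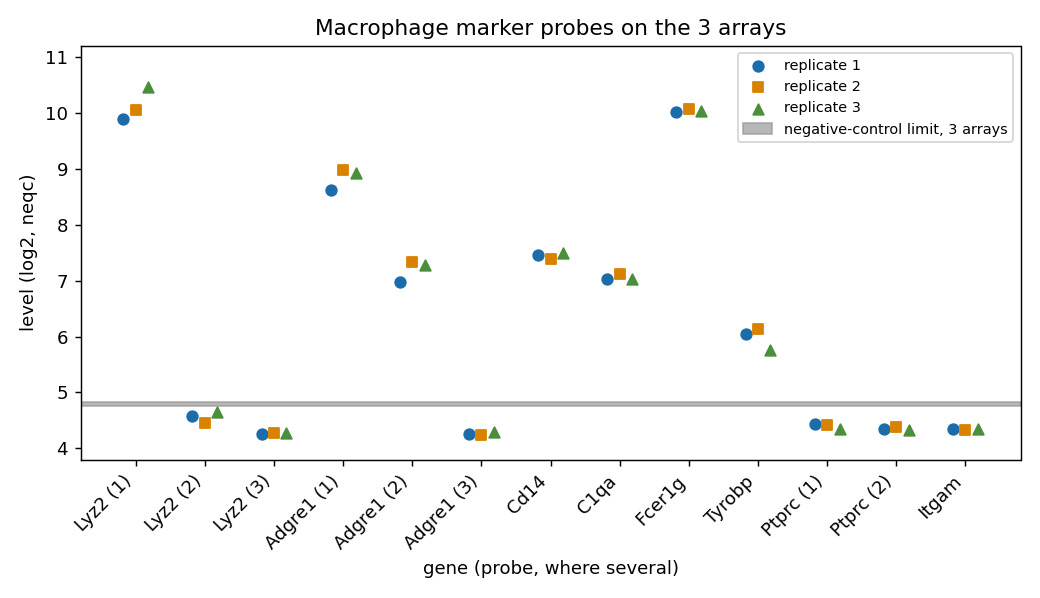
Log2 level of each of the 13 marker probes on the arrays of replicates 1, 2 and 3 (points), with the range of the negative-control limit over the 3 arrays as a grey band. The 7 detected probes lie between 5.75 and 10.47, all above the band, and the 6 others lie below it.

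Lyz2 encodes the lysozyme of macrophages and other myeloid cells, an enzyme that cuts bacterial cell walls. Its probe ILMN_2939681 had intensities of 942, 1108 and 1514 on replicates 1, 2 and 3. Replicate 3 was the highest and replicate 1 the lowest. The probe averaged 10.13 ± 0.30 on the log2 scale (SD, n = 3), 5.35 ± 0.068 (SE) above the limit (limma, adjusted p = 4.28e-33). The other 2 probes of Lyz2 were not above background on any array, ILMN_2766780 averaging 4.56 ± 0.10 and ILMN_1252076 averaging 4.27 ± 0.011.

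Lyz1, the neighbouring lysozyme gene, is a close copy of Lyz2. Its probe ILMN_2878071 had intensities of 6236, 6844 and 7014 on replicates 1, 2 and 3 and averaged 12.71 ± 0.026. A second Lyz1 probe, ILMN_2736867, was detected on replicate 3 alone, and the third was not above background. No probe sequence was used, so whether a probe of one lysozyme gene also reads the other was not tested, and the values of both are uncertain. The stretches just before the 2 start sites are shown to let the copies be compared, from RefSeq promoters of the build GRCm38.p6. Capitals mark the 9 of 120 bases that differ (92.5% identical). The stretch was chosen after the windows were compared: set side by side without gaps, 98 of the 250 bases before the start sites differ. The stretch of Lyz2 lies at chr10:117282273-117282392 and that of Lyz1 at chr10:117292869-117292988, both on the minus strand.
Lyz2: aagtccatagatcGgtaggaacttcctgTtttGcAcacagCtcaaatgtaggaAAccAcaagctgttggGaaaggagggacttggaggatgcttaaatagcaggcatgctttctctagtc
Lyz1: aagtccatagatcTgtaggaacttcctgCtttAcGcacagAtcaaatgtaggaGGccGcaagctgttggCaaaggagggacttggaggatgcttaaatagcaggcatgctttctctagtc

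C1qa encodes a chain of C1q, which starts the classical complement pathway and is made largely by macrophages. Its probe had intensities of 169, 181 and 172 on replicates 1, 2 and 3. The 3 arrays lay close together. It averaged 7.06 ± 0.055, 2.28 ± 0.063 (SE) above the limit (limma, adjusted p = 3.39e-24). The genes of the other C1q chains, which neighbour C1qa, were also detected on every array, C1qb averaging 8.44 ± 0.019 and C1qc 6.97 ± 0.19. In all, 4 of 7 measured genes of the list of C1q and early complement genes were detected (57.1%, beside 40.9% of all named genes). C4b, a complement component downstream of C1, averaged 11.57 ± 0.042 and C2 averaged 6.99 ± 0.057. The receptor genes C3ar1 and C5ar1 and the protease gene C1ra were not above background.

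Adgre1 encodes F4/80, an adhesion receptor widely used to stain mouse macrophages. Its probe ILMN_1216880 had intensities of 416, 552 and 540 on replicates 1, 2 and 3, and its probe ILMN_2847787 had 165, 203 and 198. On both probes replicate 1 was the lowest. They averaged 8.84 ± 0.19 and 7.20 ± 0.20, and lay 4.06 ± 0.062 and 2.42 ± 0.071 (SE) above the limit (limma, adjusted p = 4.10e-31 and 1.54e-23). The third probe, ILMN_2756353, was not above background on any array (4.26 ± 0.026). Such splits between probes were common: of the 2596 genes with several probes and at least 1 detected on all arrays, 80.3% also had a probe that was not.

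Cd14 encodes a co-receptor that hands bacterial lipopolysaccharide to Tlr4. Its probe had intensities of 212, 208 and 224 on replicates 1, 2 and 3. Replicate 3 was the highest by a small margin. It averaged 7.45 ± 0.058, 2.67 ± 0.060 (SE) above the limit (limma, adjusted p = 1.23e-26). Of its 7 measured partners 5 were detected on every array (71.4%, beside 40.9% of all named genes). Ly96, which encodes the Tlr4 co-receptor MD-2, averaged 7.97 ± 0.078, and Myd88, the adaptor below Toll-like receptors, 9.49 ± 0.050. Tlr2 averaged 5.93 ± 0.030, Lbp, the lipopolysaccharide-binding protein, 7.0 ± 0.057, and the adaptor gene Ticam2 5.22 ± 0.025. The adaptor gene Ticam1 was above background on 2 arrays, while Tlr4 itself was above background on 1 array (4.61 ± 0.19).

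Fcer1g encodes the common gamma chain of Fc receptors. Its probe had intensities of 1027, 1132 and 1123 on replicates 1, 2 and 3. The 3 arrays lay close together. It averaged 10.04 ± 0.035, 5.26 ± 0.046 (SE) above the limit (limma, adjusted p = 2.77e-37). Tyrobp encodes DAP12, the adaptor of Trem2 and related receptors. Its probe had intensities of 109, 110 and 92.6 on replicates 1, 2 and 3, with replicate 3 the lowest. It averaged 5.98 ± 0.20, 1.20 ± 0.078 (SE) above the limit (limma, adjusted p = 1.19e-14).

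Of 17 measured receptors and signalling genes that pair with Tyrobp or Fcer1g, 6 were detected on every array (35.3%, beside 40.9% of all named genes). Trem2, a lipid-sensing receptor of macrophages, averaged 8.32 ± 0.039, and Fcgr4, an activating receptor for IgG, 10.21 ± 0.069. Clec4n, which encodes Dectin-2, averaged 6.82 ± 0.044, and Fcgr1, the high-affinity IgG receptor, 5.60 ± 0.062. Siglech averaged 5.33 ± 0.23, and Plcg2, a phospholipase that acts below these receptors, 8.10 ± 0.050. Trem1, Trem3, Fcgr3 and Clec4e were above background on 2 arrays each. The remaining 7, among them the kinase gene Syk (4.41 ± 0.069) and the mast cell receptor gene Fcer1a (4.45 ± 0.088), were not above background on any array.

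Ptprc encodes CD45, a phosphatase on the surface of nearly all leukocytes. Its probe ILMN_2671984 had intensities of 63.6, 56.4 and 51.8 on replicates 1, 2 and 3, and its probe ILMN_1212836 had 59.6, 55.4 and 51.0. Neither was above background on any array (4.40 ± 0.044 and 4.35 ± 0.026). Among 12 other leukocyte-wide genes 7 were detected on every array (58.3%, beside 40.9% of all named genes). Laptm5, a lysosomal membrane protein of blood cells, averaged 11.63 ± 0.036, Ptpn6, the phosphatase SHP-1, 8.74 ± 0.075, and Cd52, a small surface glycoprotein, 8.59 ± 0.038. Cd53, a tetraspanin, had intensities of 129, 147 and 181 on replicates 1, 2 and 3 and averaged 6.78 ± 0.33. Replicate 3 was the highest. The other detected genes were Coro1a (7.81 ± 0.024), Vav1 (7.91 ± 0.10) and Arhgdib (6.11 ± 0.12). Rac2 and Cd37 were above background on 1 array each. Lcp1, Cd48 and Ptprcap, which encodes a protein bound to CD45, were not above background.

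Itgam encodes CD11b, the alpha chain of the integrin Mac-1. Its probe had intensities of 60.3, 52.9 and 52.0 on replicates 1, 2 and 3 and was not above background on any array (4.34 ± 0.019). The same held for all 5 measured genes of the list of beta2 integrin chains and adaptors, 0 of 5 being detected beside 40.9% of all named genes. These included Itgb2, the beta chain that pairs with Itgam (4.68 ± 0.12), and Itgax, which encodes CD11c (4.43 ± 0.052). They also included the adaptor genes Fermt3 (4.39 ± 0.019) and Tln1 (4.42 ± 0.056). Itgam, Itgb2, Itgax, Fermt3 and Tln1 had 1 probe each, and whether these probes read their genes was not tested. The promoters of Itgam and Ptprc are shown as those of the 2 measured markers that were not above background, from RefSeq in the build GRCm38.p6. Capitals mark GAGGAA, the PU box bound by the myeloid factor PU.1, searched on both strands (TTCCTC on the other). Itgam lies at chr7:128062390-128062639 on the plus strand and Ptprc at chr1:138175306-138175555 on the minus strand.
Itgam: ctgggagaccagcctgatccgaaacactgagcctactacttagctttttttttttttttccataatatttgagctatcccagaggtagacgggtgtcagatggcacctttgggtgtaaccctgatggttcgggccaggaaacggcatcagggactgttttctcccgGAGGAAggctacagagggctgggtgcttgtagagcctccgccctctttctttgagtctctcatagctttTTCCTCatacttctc
Ptprc: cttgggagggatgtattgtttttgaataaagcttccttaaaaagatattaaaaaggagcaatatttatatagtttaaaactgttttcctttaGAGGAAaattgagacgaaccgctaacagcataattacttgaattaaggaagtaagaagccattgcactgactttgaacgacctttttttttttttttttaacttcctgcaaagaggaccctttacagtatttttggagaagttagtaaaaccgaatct

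Itgam held 2 matches, this Ptprc window 1 and the Cd68 window 1, while the other Ptprc window and those of Lyz2 and Fcer1g held 0. Of all 32851 windows of 250 bases before a start site, 23.3% held a match. Of the 10 markers, 5 had a window in the table.

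On other lists of macrophage genes the share detected differed, beside 40.9% of all named genes. All 17 measured lysosomal and secreted products were detected on every array, with the cathepsin genes Ctss at 7.52 ± 0.22, Ctsb at 12.88 ± 0.038 and Ctsd at 5.76 ± 0.026. Lysosomal genes are used by many cell types, the acinar cell included. Of 17 tissue macrophage receptors 9 were detected (52.9%), with Mrc1, the mannose receptor, at 5.53 ± 0.089 and Cd163, the haemoglobin scavenger receptor, at 5.17 ± 0.21, while Msr1 was not above background (4.27 ± 0.041). Of 11 myeloid transcription factors 5 were detected (45.5%, near the 40.9% of all named genes), Cebpb averaging 10.21 ± 0.029; the others, named after their values were seen, were Irf8, Irf5, Klf4 and Nr1h3. Spi1, which encodes PU.1, was above background on 2 arrays (4.82 ± 0.12), and Cebpa on none (4.33 ± 0.088). Csf1, a ligand of the receptor that Csf1r encodes, averaged 5.17 ± 0.087, and the other ligand gene, Il34, was not above background (4.34 ± 0.047).

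Markers of other blood cells, endothelium and mesenchyme that a sort could hold were read beside these, against the same 40.9% of all named genes. Of the monocyte list 3 of 7 measured genes were detected (42.9%), with Ly6c1 at 6.23 ± 0.16 and Plac8 at 7.43 ± 0.055. Of the neutrophil list 4 of 12 were detected (33.3%), and the defining genes S100a8 (4.31 ± 0.086) and S100a9 (4.33 ± 0.030) were not above background. Of the dendritic cell list 4 of 9 were detected (44.4%), with Zbtb46 at 5.26 ± 0.18 and Flt3 and Xcr1 not above background. The lists of mast cells and basophils (1 of 9), T and B cells (1 of 8) and natural killer cells (1 of 9) had 1 detected gene each. Endothelial genes were detected for 1 of 6, mesenchymal genes for 3 of 7 and platelet and red cell genes for 3 of 6. The single detected genes were chosen after their values were seen. They were Hdc for mast cells and basophils (7.40 ± 0.089) and Cd3e for T and B cells (6.89 ± 0.24). For natural killer cells it was Prf1 (9.62 ± 0.14), and for endothelium Plvap (6.44 ± 0.090). Prf1 averaged above every detected marker but Lyz2 and Fcer1g. Named likewise, the detected neutrophil genes were Csf3r (5.61 ± 0.054), Ltf (7.26 ± 0.12), Elane (4.91 ± 0.097) and Mmp9 (5.06 ± 0.24). The dendritic cell genes beside Zbtb46 were Ccr7 (5.44 ± 0.27), Itgae (5.56 ± 0.12) and Siglech (5.33 ± 0.23). The third monocyte gene was F13a1 (4.91 ± 0.068). Of the other measured monocyte genes, Chil3 (4.49 ± 0.12), Ccr2 (4.27 ± 0.014) and Nr4a1 (4.36 ± 0.047) were not above background. Treml4 was above background on 1 array. In limma, F13a1, Elane and the mesenchymal gene Col1a2 were not above the limit (adjusted p over 0.05). Which cells carried the macrophage markers was not tested.

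**Figure D2:**
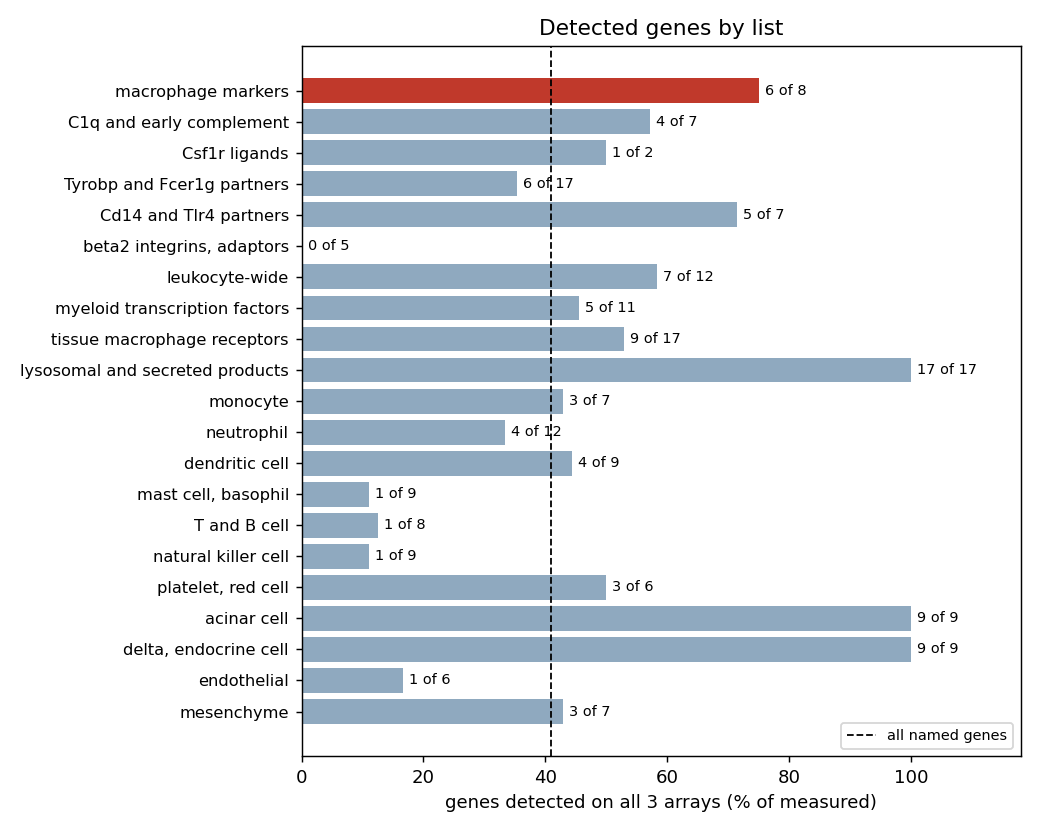
Share of measured genes detected on all 3 arrays (bars, in percent) for the macrophage markers and 20 other gene lists, with counts beside the bars and the share of all named genes, 40.9%, as a dashed line. The markers stand at 6 of 8, the beta2 integrin list at 0 of 5, and the lists of acinar genes, endocrine genes and lysosomal and secreted products at all of their measured genes.

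The markers did not share 1 order of the arrays. Lyz2 was highest on replicate 3, and Tyrobp was lowest on replicate 3. Lyz2, C1qa, Fcer1g and both detected Adgre1 probes were lowest on replicate 1. These orders were the same under all 5 scalings tried. Cd14 was lowest on replicate 2, but on replicate 1 without the quantile step. Of the 6 detected genes, 0, 4 and 2 were highest on replicates 1, 2 and 3. The shares of all detected probes were 37.4%, 32.8% and 29.8%. The ranges between arrays were 0.58 log2 units for Lyz2, 0.38 for Tyrobp and 0.36 for each Adgre1 probe. C1qa (0.10), Cd14 (0.11) and Fcer1g (0.069) ranged less. Of the 8486 probes detected on all arrays, 98.4% had a smaller SD than Lyz2 and 91.2% than Tyrobp. For the 2 Adgre1 probes the shares were 90.3% and 90.6%. These shares are over probes of all levels, and no comparison with probes of like level was made. In all, 4 of the 7 detected marker probes had an SD above the median of detected probes, 0.087. With 3 samples of 1 group these differences were not tested. Without the quantile step, the medians of detected probes differed by 0.16 between the arrays, and the ranges were 0.76 for Lyz2, 0.23 for C1qa, 0.21 for Cd14 and 0.19 for Fcer1g.

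**Figure D3:**
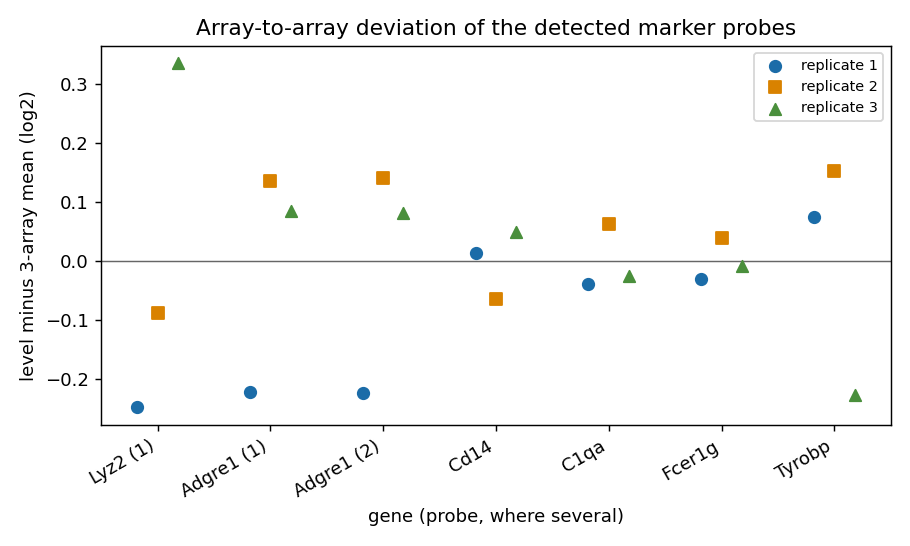
Deviation of each of the 7 detected marker probes from its own mean over the 3 arrays, in log2 units, with 1 point for each replicate. Lyz2 ranges over 0.58 with replicate 3 on top, both Adgre1 probes have replicate 1 at the bottom, and Tyrobp has replicate 3 at the bottom.

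**Figure D4:**
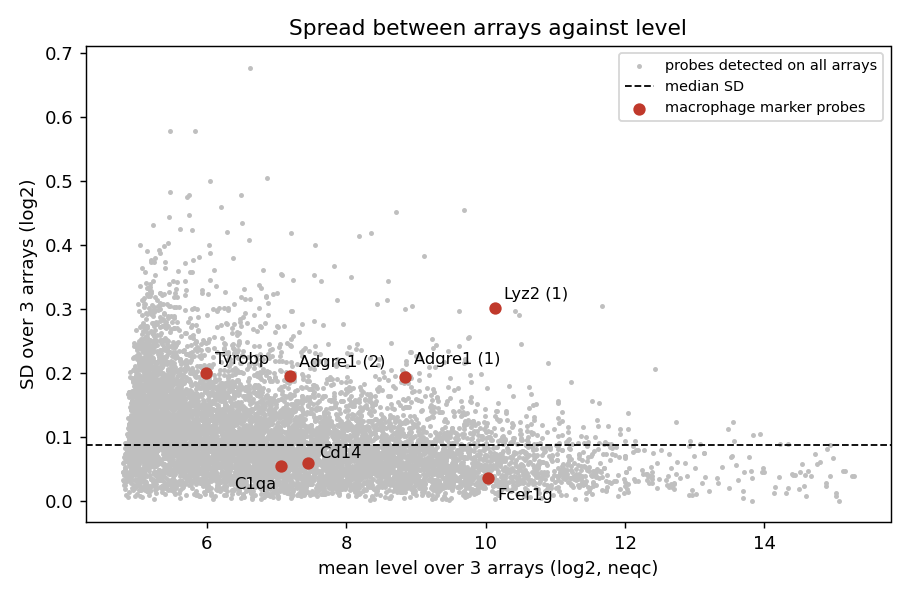
SD over the 3 arrays against mean log2 level for the 8486 probes detected on all arrays (grey points), with the 7 detected marker probes in red and the median SD, 0.087, as a dashed line. Lyz2, Tyrobp and the 2 Adgre1 probes lie above the line, and Cd14, C1qa and Fcer1g lie below it.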

How the data were processed

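Total RNA of 3 samples was read on Illumina MouseRef-8 v2.0 beadchips. Per the file headers, the authors deposited for each probe an average bead intensity and the p-value of its detection; the 3 intensity columns share a mean of 211.8, so they had been scaled before deposit, and their lowest values (41.8, 38.7 and 36.0 on replicates 1, 2 and 3) show no background subtraction. The other deposited table gives processed intensity values of the authors, linear and sharing 1 distribution over the arrays; the target of that normalization is unknown. For the scanner software, no source used here gives a name. Probes were named from the platform annotation (23978 with 1 symbol, 1719 unnamed, 0 with several) and checked by Entrez identifier against a RefSeq table of GRCm38.p6 (23962 matched).

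Intensities were corrected by normexp (offset of 16), which inferred the negative controls from the deposited p-values of detection, quantile normalized and taken to log2 (neqc, limma 3.58.1, R 4.3.3). The level minus the array's limit was fitted in limma across all 25697 probes with a variance trend and Benjamini-Hochberg adjustment; the limit was taken as fixed. A gene counts as detected where any probe is, and its level is that of its brightest probe. The fit was tested on simulated data. The markers and the 20 other gene lists were chosen with earlier results of these data known. By the naming rule, all markers, all genes of the partner and leukocyte-wide lists, the first 3 genes of each other list and Lyz1 could be named. Ins2, Gcg, the remaining measured monocyte genes and the further detected genes named by list fall outside this rule. Alternatives changed the detection threshold, the arrays required, the normalization, the variance trend, the probes tested and the arrays used. The number of arrays limits the precision.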

Additional observations from a re-analysis of the deposited data

How the results depend on the processing

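The count of detected markers, 6 of 8, was 6 with a detection p under 0.01 (35.4% of all named genes), with Benjamini-Hochberg adjustment of the detection p on each array (36.8%), with at least 2 of 3 arrays (44.7%) and without each replicate in turn (6 to 6; 41.7% to 43.1%). It was 4 where every probe of a gene had to be detected, which 28.3% of all named genes met. The count above the limit in limma was 6 under all 9 alternatives, those without a replicate included (6 to 6). That count follows the detection call, which sets the limit. The count of detected genes over the markers and the 9 partner and macrophage lists was 60 of 103 measured (58.3%). Of these 60, 17 were lysosomal and secreted products, a list detected in full. The pooled count ranged from 49 (every probe detected) to 66 (at least 2 of 3 arrays) over the 7 alternatives. It was 61 to 63 without a replicate, and the shares of all named genes were those just given. The Lyz2 probe ILMN_2766780, the brighter of the 2 undetected ones, below the limit by the fit of all arrays, no longer passed without replicate 2 (limma, adjusted p = 0.133). No paired analysis was possible because all samples belong to 1 group. Of the detected marker probes, that of Tyrobp was nearest to the limit, between 0.62 and 1.29 log2 units above it over all settings. The number of marker probes with an SD above the median was 4, and 5 without the quantile step. Over all settings Lyz2 lay 4.11 to 5.50 above the limit and Fcer1g 4.02 to 5.30, the low values being those without background correction; an offset of 50 (4.24 and 4.14) and the authors' processed values (4.15 and 4.06) lay close to them.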
